A study of Mus musculus with 18 samples.

Results

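The common gamma chain cytokine system was followed through 18 RNA-seq libraries of mouse intestinal dendritic cells (DCs), which take up antigen in the gut wall and carry it to the draining lymph nodes. The system was taken as 10 of the 54232 genes of the count table, found by matching Ensembl identifiers to symbols: the gamma chain Il2rg, the receptor chains Il2ra, Il4ra, Il7r, Il15ra, Il21r, Il13ra1 and Crlf2, the cytokine Il15 and the kinase Jak3. All 10 were found and all 10 passed the filter on low counts. The genes were chosen by function with levels and fold changes of the same libraries already known, among them the difference of Il2rg between tissues and subsets, so levels and fold changes of the 10 genes are given as a description without a test. All libraries came from C57BL/6J mice labelled CD11a KO, and no library of unmodified mice was analysed here. In each of the small intestinal lamina propria and the intestinal lymph node there were 3 libraries each of CD11b+, CD103+ and double-positive (CD11b+ CD103+) DCs, which makes 6 groups.

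The protocols describe intestinal DCs as live single CD45+ CD64- MHCII-high CD11c+ cells, and they give no separate sort for the lymph node. No age, knockout allele, number of animals per library or infection was given for these libraries, and nothing says that the 3 libraries of a group came from separate animals, so p-values measure only the spread between these libraries, which may be technical. Total counts ran from 23574292 to 46901985 per library. The targeted gene Itgal, which encodes CD11a, gave 6.45 to 26.6 CPM (counts scaled to the size of the library) over all 18 libraries, and without the position of the deletion these counts do not check the genotype. Of 5 DC markers, all were present in every group, but H2-Ab1 and Itgax, the genes of an MHCII chain and of CD11c, were lower in the lymph node, by more than 2-fold at an adjusted p under 0.01, in CD103+ DCs (log2 fold changes -2.96, SE 0.11, and -2.18, SE 0.12) and in double-positive DCs (-1.06, SE 0.10, and -1.39, SE 0.12). Ccr7, also of the 5, was higher in the lymph node in CD11b+ DCs (5.18, SE 0.33) and CD103+ DCs (6.27, SE 0.34). By the same limits 1, 1 and 2 of the 5 were higher in CD11b+, CD103+ and double-positive DCs, and 0, 2 and 2 were lower. Of 5 markers of cDC1, the lineage of CD103+ DCs, 4 were lower in lymph node CD103+ DCs, among them Xcr1 (-3.84, SE 0.16) and Clec9a (-2.69, SE 0.22), while 3 were higher in CD11b+ and 4 in double-positive DCs of the lymph node. Transcripts of the sort markers were low in the lymph node, where CD103+ DCs had 27 to 40 CPM of Itgae (CD103) against 1238 to 1440 CPM in the lamina propria. Double-positive DCs had 41 to 49 CPM of Itgae against 714 to 896 CPM, and 4.8 to 5.8 CPM of Itgam (CD11b) against 63.2 to 76.4 CPM. CD11b+ DCs had 13.8 to 25.7 CPM of Itgam against 55.3 to 68.1 CPM. In double-positive DCs 4 markers of cDC2 summed to 195 to 237 CPM against 2487 to 2929 CPM, with 3 lower and 0 higher by the same limits. The subset names in the lymph node are those of the labels. Lymphocyte markers moved with tissue. The sum of 12 T cell markers was 16.2 to 229 CPM in the lamina propria and 426 to 830 CPM in the lymph node, with none of the 12 at 0 in any group. The upper values of the lamina propria, in CD103+ DCs, were mostly Cd8a (166 to 221 CPM), which cDC1 also carry, and the other 11 markers summed to 7.91 to 13.1 CPM there and to 393 to 671 CPM in lymph node CD103+ DCs. The sum of 9 B cell markers was 48.1 to 56 CPM in CD11b+, 17.2 to 24.2 CPM in CD103+ and 12.4 to 16.1 CPM in double-positive DCs of the lamina propria, with Pax5 at 0 in the last, and 169 to 241 CPM, 39.4 to 58.3 CPM and 60.9 to 75.4 CPM in the lymph node. Of the 8 B cell markers tested, 7, 6 and 7 were higher in the lymph node. Bulk values cannot tell fewer cells of a type apart from less RNA per cell. The animals differed too: Ddx3y, on the Y chromosome, was present in all 9 lamina propria libraries, whereas all 9 lymph node libraries held Xist and 2 of them, replicate 3 of CD11b+ and replicate 3 of double-positive DCs, held both. Differences between tissues therefore cannot be told apart from differences between the sexes in these libraries. This includes Il2rg and Il13ra1, which lie on chromosome X.

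The gamma chain is the shared signalling subunit of the receptors for IL-2, IL-4, IL-7, IL-9, IL-15 and IL-21. It signals through JAK3 and works with a private chain for each cytokine. A partner chain in each receptor brings JAK1, which for IL-2 and IL-15 is the shared product of Il2rb and not the private chain. Together the kinases activate STAT proteins that enter the nucleus. Some private chains also work without the gamma chain: IL-4Rα pairs with IL-13Rα1 to bind IL-4 and IL-13, and IL-7Rα pairs with the product of Crlf2 to bind TSLP. DCs are best known in this system for IL-15, which they hold on IL-15Rα at their own surface and present to T cells and NK cells.

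Pairs of the 10 genes lie side by side in the genome (GRCm38). Il2ra (chromosome 2, 11642807 to 11693193, plus strand) and Il15ra (11705290 to 11734317, plus strand) are separated by 12097 bases. Il4ra (chromosome 7, 125552120 to 125579474, plus strand) and Il21r (125603429 to 125633570, plus strand) are separated by 23955 bases. In both gaps 0 protein-coding genes start. Il2rg (101264378 to 101268255, minus strand) and Il13ra1 (36112110 to 36171259, plus strand) are on chromosome X. Il7r is on chromosome 15 (9505788 to 9530176, minus strand), Crlf2 on chromosome 5 (109554709 to 109558993, minus strand), and Il15 (82331632 to 82403222, minus strand) and Jak3 (71676296 to 71690575, plus strand) on chromosome 8.

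The RefSeq table held promoters for 9 of the 10 genes, in 10 windows of 250 bases before a start site, and the gene without an entry was Il15. Each window was searched on both strands for a STAT-type motif (GAS, TTCNNNGAA), the IRF motif of interferon regulatory factors and the kappaB motif of the NF-kB family. GAS was found in 1 window and in 7.02% of 32851 promoter windows of that length, IRF in 0 windows and 2.98%, and kappaB in 1 window and 7.25%. Il2ra and Il7r held the matches. The stretches are shown because they hold these matches, which are to different motifs. Capitals mark the matched letters. In Il2ra (RefSeq, GRCm38.p6, chr2:11642542-11642791, plus strand) a pair of overlapping kappaB matches lay 201 to 191 bases before the start site. In Il7r the GAS match lay 142 to 134 bases before the start site, and it is printed with 10 bases on each side (chr15:9530000-9530028, minus strand). That stretch is inside the annotated span of the gene, which extends further upstream, to 9530176.
Il2ra: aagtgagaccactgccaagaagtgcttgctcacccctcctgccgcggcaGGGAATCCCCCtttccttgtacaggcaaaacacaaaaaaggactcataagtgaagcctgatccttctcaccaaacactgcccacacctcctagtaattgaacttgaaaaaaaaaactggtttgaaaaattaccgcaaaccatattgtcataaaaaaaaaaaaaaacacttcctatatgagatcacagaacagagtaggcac
Il7r: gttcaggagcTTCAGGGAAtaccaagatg
A match describes letters only, and binding was not measured.

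Il2rg, the shared chain, was abundant in 5 of the 6 groups and low in lamina propria CD103+ DCs. In the lamina propria it gave 236, 240 and 260 CPM in CD11b+ DCs, 18.9, 19.5 and 20.6 CPM in CD103+ DCs, and 180, 197 and 205 CPM in double-positive DCs. In the lymph node it gave 369, 372 and 425 CPM in CD11b+ DCs, 333, 337 and 343 CPM in CD103+ DCs, and 316, 316 and 341 CPM in double-positive DCs. The lymph node libraries thus all lay above all lamina propria libraries, and among lymph node groups only CD103+ and double-positive DCs overlapped. The gene was 17.2-fold higher in lymph node than in lamina propria CD103+ DCs (log2 fold change 4.10, SE 0.08), against 1.58-fold in CD11b+ DCs (0.66, SE 0.07) and 1.67-fold in double-positive DCs (0.74, SE 0.07). Lymphocyte markers were higher in the lymph node as well. In CD103+ DCs the 11 T cell markers other than Cd8a summed to 7.91 to 13.1 CPM in the lamina propria and 393 to 671 CPM in the lymph node. The part of lymphocytes in the levels of Il2rg was not tested. In each lymph node group with a library holding both Xist and Ddx3y, that library had the highest Il2rg, at 425 and 341 CPM. Part of Il2rg overlaps the protein-coding Gm20489 on the same strand, so reads there may have been lost or counted to the other gene.

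**Figure D1:**
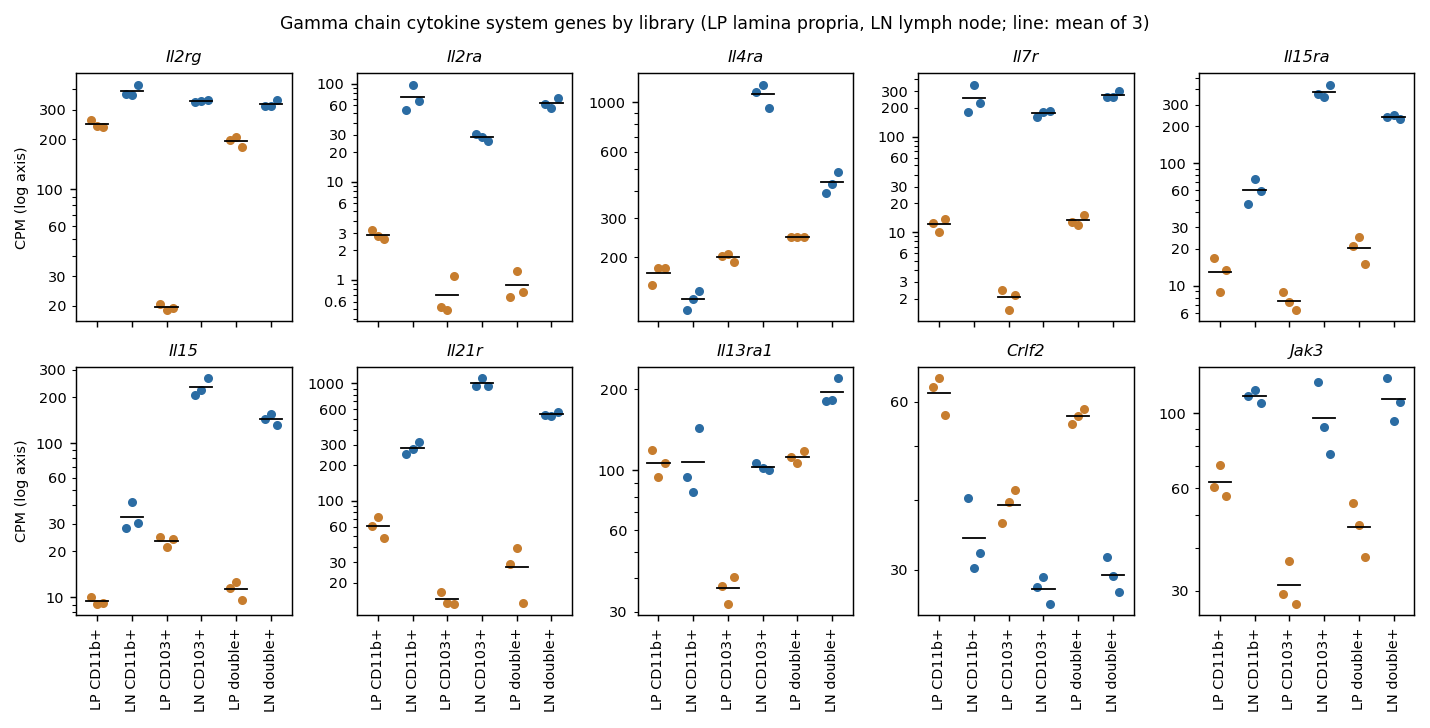
CPM (log axis) of the 10 genes in each library, by group of tissue and subset, with 1 point per library and a line at the mean of 3. Il2rg is near 20 CPM only in lamina propria (LP) CD103+ DCs, Il4ra, Il15ra, Il15 and Il21r peak in lymph node (LN) CD103+ DCs, and Crlf2 is higher in the lamina propria in each subset.

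IL-15 and the chain that presents it had their highest levels in the same group. Il15 gave 9.12, 9.25 and 10.1 CPM in lamina propria CD11b+ DCs, 21.2, 24.1 and 24.8 CPM in CD103+ DCs and 9.64, 11.6 and 12.6 CPM in double-positive DCs. The lymph node values were 28.1, 30.6 and 41.9 CPM, 206, 223 and 265 CPM, and 132, 144 and 155 CPM in the same order of subsets. Every lymph node library was above every lamina propria library, and the only neighbours in the order of groups that overlapped were lamina propria double-positive and CD11b+ DCs. Il15 was 3.54-fold higher in the lymph node in CD11b+ DCs (log2 fold change 1.82, SE 0.15), 9.92-fold in CD103+ DCs (3.31, SE 0.15) and 12.7-fold in double-positive DCs (3.67, SE 0.15).

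Il15ra, which holds IL-15 at the cell surface for presentation, gave 8.97, 13.5 and 16.8 CPM in lamina propria CD11b+ DCs, 6.36, 7.36 and 8.91 CPM in CD103+ DCs and 15, 21.2 and 25.1 CPM in double-positive DCs. Its lymph node values were 46.5, 58.9 and 75 CPM, 345, 368 and 439 CPM, and 231, 237 and 249 CPM. The 3 lymph node groups were apart from each other and from the lamina propria, in which CD11b+ and double-positive DCs overlapped. The fold changes between tissues were 4.6 in CD11b+ DCs (log2 2.20, SE 0.22), 50.8 in CD103+ DCs (5.67, SE 0.26) and 11.7 in double-positive DCs (3.55, SE 0.23). Lamina propria CD103+ DCs therefore had the highest Il15 of the lamina propria and the lowest Il15ra mean of all groups, whereas in the lymph node they were highest in both.

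Il2ra and Il7r, the private chains for IL-2 and IL-7, had low levels in the whole lamina propria. Il2ra gave 2.59, 2.82 and 3.19 CPM there in CD11b+ DCs, 0.495, 0.531 and 1.1 CPM in CD103+ DCs and 0.67, 0.75 and 1.22 CPM in double-positive DCs. Lymph node libraries gave 53.2, 65.8 and 97.7 CPM, 26.2, 28.6 and 30.4 CPM, and 56.4, 62.4 and 70.9 CPM. CD11b+ and double-positive DCs of the lymph node overlapped, and CD103+ DCs were below both. The lamina propria levels rested on 15 to 89 counts per library, and the fold changes were 25.2 in CD11b+ DCs (log2 4.65, SE 0.26), 41.7 in CD103+ DCs (5.38, SE 0.30) and 71.1 in double-positive DCs (6.15, SE 0.30). Gm37881 overlaps Il2ra on the same strand, so reads there may have been lost or counted to the other gene.

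Il7r, which serves both IL-7 and TSLP, gave 10, 12.4 and 13.7 CPM in lamina propria CD11b+ DCs, 1.53, 2.2 and 2.48 CPM in CD103+ DCs and 12, 12.7 and 15.1 CPM in double-positive DCs. The lymph node values were 182, 225 and 352 CPM, 160, 182 and 186 CPM, and 259, 260 and 300 CPM. The lymph node groups overlapped in the order double-positive, CD11b+, CD103+, and all were above the lamina propria. Its span of group means, 132-fold from lowest to highest, was the widest of the 10 genes, and the fold change between tissues was 21 in CD11b+ DCs (log2 4.39, SE 0.22), 87.1 in CD103+ DCs (6.44, SE 0.26) and 20.6 in double-positive DCs (4.36, SE 0.22).

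T cells and innate lymphoid cells also carry Il7r and Il2ra. In lymph node CD11b+ DCs replicate 2 had the highest Il7r (352 CPM), Il2ra (97.7 CPM), T cell marker sum (804 CPM) and sum of 9 NK cell and ILC markers (438 CPM) of its group. In lymph node CD103+ DCs replicate 3 had the lowest T cell sum (502 CPM), NK cell and ILC sum (25.3 CPM) and Il2ra (26.2 CPM) of its group. The same library had the highest Il7r of the group (186 CPM). Across lymph node groups the NK cell and ILC sum was 283 to 438 CPM in CD11b+, 25.3 to 43.6 CPM in CD103+ and 82.9 to 91.7 CPM in double-positive DCs. The 11 T cell markers other than Cd8a summed to 481 to 756, 393 to 671 and 350 to 552 CPM in the same order. In the lamina propria these 11 summed to 16.3 to 44.1, 7.91 to 13.1 and 12.2 to 23.5 CPM. The lymph node group means of Il7r were 253, 176 and 273 CPM. In the lamina propria the NK cell and ILC sum was 7.57 to 79.5 CPM. Of its 9 markers only Eomes was at 0 in all libraries of a group, in CD11b+ and double-positive DCs. Most of the sum in lamina propria double-positive DCs (64.5 to 67.7 CPM) was Tbx21 (57.8 to 60.1 CPM). In that subset Tbx21 was 15.8 to 17.8 CPM in the lymph node, and Ncr1 was 0.034 to 0.107 CPM in the lamina propria against 11 to 18.7 CPM. By more than 2-fold at an adjusted p under 0.01, 7 of the 9 were higher there in the lymph node and 2 lower. The part of such cells in the levels of both receptor genes was not tested.

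**Figure D2:**
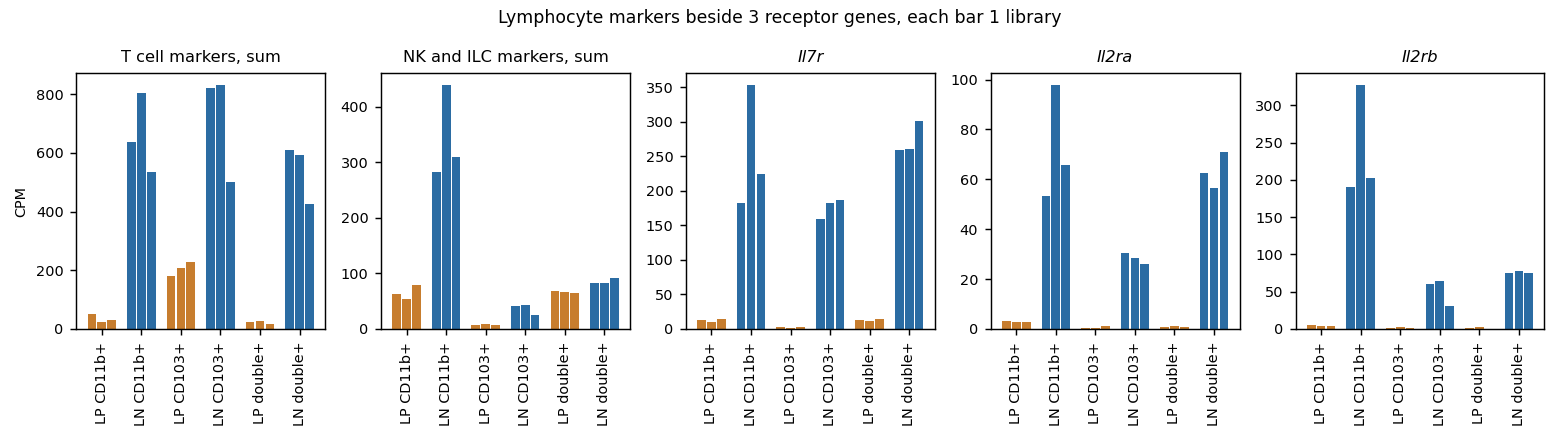
Summed CPM of 12 T cell markers and of 9 NK cell and ILC markers beside the CPM of Il7r, Il2ra and Il2rb, with 1 bar per library (replicates 1 to 3 from left to right in each group) and axes from 0. The NK cell and ILC sum reaches 438 CPM in lymph node CD11b+ DCs and at most 43.6 CPM in lymph node CD103+ DCs, while Il7r is at least 160 CPM in both.

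Il21r, the IL-21 chain, and Il4ra, the IL-4 and IL-13 chain, were both highest in lymph node CD103+ DCs. Il21r gave 48.5, 61.2 and 73.1 CPM in lamina propria CD11b+ DCs, 13.3, 13.4 and 16.6 CPM in CD103+ DCs and 13.3, 28.9 and 39.5 CPM in double-positive DCs. Its values were 250, 273 and 318 CPM, 937, 951 and 1101 CPM, and 523, 533 and 571 CPM in the lymph node. Lamina propria CD103+ and double-positive DCs overlapped and all other neighbours were apart. The fold changes between tissues were 4.61 in CD11b+ DCs (log2 2.20, SE 0.26), 69 in CD103+ DCs (6.11, SE 0.31) and 19.9 in double-positive DCs (4.31, SE 0.28).

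Il4ra was the gene whose tissue difference changed direction with the subset. In CD11b+ DCs it gave 150, 179 and 180 CPM in the lamina propria and 116, 130 and 141 CPM in the lymph node, so the lymph node libraries were all lower (log2 fold change -0.39, SE 0.11). In CD103+ DCs it gave 190, 202 and 208 CPM against 948, 1112 and 1204 CPM, a 5.44-fold higher level in the lymph node (2.44, SE 0.11). In double-positive DCs it gave 246, 247 and 247 CPM against 392, 428 and 486 CPM (0.82, SE 0.11). No pair of neighbouring groups overlapped for Il4ra. B cells also carry Il4ra and Il21r. The B cell marker sum of the lymph node was highest in CD11b+ DCs, and both genes were highest in CD103+ DCs. Of 12 T cell markers, 9 had a positive log2 fold change in CD103+ against CD11b+ DCs of the lymph node. By more than 2-fold at an adjusted p under 0.01, 2 of the 12 were higher and 1 was lower. The part of lymphocytes within each subset was not tested. An antisense gene, Gm44876, overlaps Il4ra, and counting was described as unstranded, so its reads are not separated.

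Il13ra1 and Crlf2, the partners that need no gamma chain, had narrower spans. Il13ra1 gave 94.4, 107 and 119 CPM in lamina propria CD11b+ DCs, 32.1, 37.5 and 40.2 CPM in CD103+ DCs and 106, 112 and 118 CPM in double-positive DCs, against 83.3, 94.6 and 143 CPM, 100, 102 and 106 CPM, and 182, 183 and 220 CPM in the lymph node. As for Il2rg, the lowest group by far was lamina propria CD103+ DCs, but 4 groups near 100 CPM overlapped in order and double-positive DCs of the lymph node were above them. The log2 fold changes between tissues were 0.00 (SE 0.15) in CD11b+, 1.49 (SE 0.16) in CD103+ and 0.79 (SE 0.15) in double-positive DCs. The values 143 and 220 CPM belong to the 2 libraries holding both Xist and Ddx3y, whose part was not tested.

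Crlf2, the TSLP receptor chain, was the only one of the 10 with a lower mean in the lymph node in each subset. It gave 56.8, 63.7 and 66.2 CPM in lamina propria CD11b+ DCs, 36.3, 39.6 and 41.8 CPM in CD103+ DCs and 54.8, 56.7 and 58.2 CPM in double-positive DCs. The lymph node values were 30.2, 32.1 and 40.4 CPM, 26.1, 28 and 29.1 CPM, and 27.3, 29.2 and 31.6 CPM. Within each subset the tissues did not overlap, with log2 fold changes of -0.86 (SE 0.11), -0.50 (SE 0.11) and -0.95 (SE 0.11), all short of 2-fold. With total counts in place of scaled libraries the value in double-positive DCs was -1.12, past 2-fold.

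Jak3, the kinase bound by the gamma chain, gave 57.1, 60.8 and 70.3 CPM in lamina propria CD11b+ DCs, 27.5, 29.2 and 36.8 CPM in CD103+ DCs and 37.8, 46.7 and 54.3 CPM in double-positive DCs. Lymph node libraries gave 107, 112 and 116 CPM, 76, 91 and 124 CPM, and 94.7, 108 and 127 CPM. The lymph node groups overlapped each other and the lamina propria groups did not. Jak3 was 1.79-fold higher in the lymph node in CD11b+ DCs (log2 fold change 0.84, SE 0.17), 3.1-fold in CD103+ DCs (1.63, SE 0.17) and 2.37-fold in double-positive DCs (1.25, SE 0.17). Insl3 overlaps Jak3 on the same strand. The part of lymphocytes in the levels of Jak3 was not tested.

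Per kilobase of exon, where levels can be compared between genes, the order of the 10 genes differed between groups. In lamina propria CD103+ DCs the highest levels were 33.3 ± 1.46 CPM per kb (SD, n = 3) of Il4ra and 26.3 ± 1.84 of Crlf2, while Il2rg had 8.23 ± 0.368. In lamina propria CD11b+ DCs Il2rg led with 103 ± 5.58, followed by Crlf2 with 41.6 ± 3.25. In lymph node CD103+ DCs the order began with Il21r at 300 ± 27.3, Il4ra at 181 ± 21.7, Il2rg at 141 ± 2.15, Il15 at 102 ± 13.4 and Il15ra at 86.4 ± 11.1, and ended with Il2ra at 4.97 ± 0.372 CPM per kb. Il2rg led in lymph node CD11b+ DCs with 163 ± 13.2, whereas in double-positive DCs Il21r had 163 ± 7.54 and Il2rg 136 ± 6.11. Il2ra was lowest of the 10 in every group.

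A gene was counted as past the limits of the study at an adjusted p under 0.01 and a change of more than 2-fold in the fit of all genes. For the 10 genes these counts describe the choice, and nothing is read from them. In the lymph node 5 of the 10 were past the limits and higher in CD11b+ DCs, where 10.3% of all 17074 genes tested were higher, and they were Il2ra, Il7r, Il15ra, Il15 and Il21r. In CD103+ DCs 9 were higher, all but Crlf2, against 19.8% of all genes. In double-positive DCs 6 were higher, the 5 named and Jak3, against 18.6% of all genes, and with total counts 6 were higher and 1, Crlf2, was lower. No gene of the 10 was past the limits and lower with the scaling used, where 4.93%, 15.1% and 13.6% of all genes were lower in the 3 subsets. The median log2 fold change of the 10 was 1.33, 3.71 and 2.40 in the 3 subsets, and that of all genes 0.03, 0.04 and 0.07.

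**Figure D3:**
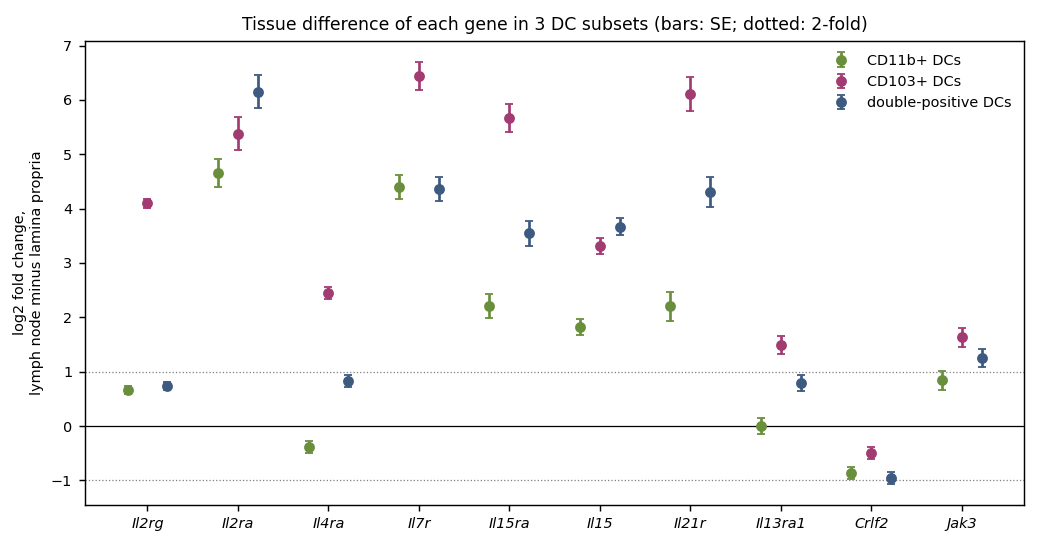
Log2 fold change (lymph node minus lamina propria) of each of the 10 genes in CD11b+, CD103+ and double-positive DCs, with bars for the SE and dotted lines at 2-fold. Il2rg stands at 4.10 in CD103+ DCs and at 0.66 and 0.74 in the others, Il4ra lies on both sides of 0, and Crlf2 is below 0 in all 3 subsets.

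Between subsets of the lamina propria, CD103+ DCs are described first, with counts that again only describe the choice of genes. Against CD11b+ DCs, 7 of the 10 genes were past the limits (of all genes 15.7%, with 5.07% higher and 10.6% lower): Il2rg was 12.5-fold lower (log2 fold change -3.64, SE 0.08), Il2ra, Il7r, Il21r, Il13ra1 and Jak3 were lower by log2 values from -2.58 to -1.01, and Il15 was higher (1.30, SE 0.15). Double-positive against CD103+ DCs gave 5 of 10 (of all genes 13.6%, with 8.10% higher and 5.52% lower), with Il2rg 9.87-fold higher (3.30, SE 0.08), Il7r, Il15ra and Il13ra1 higher, and Il15 lower (-1.05, SE 0.14). Double-positive and CD11b+ DCs differed in 2 of 10 (of all genes 4.81%, with 1.14% higher and 3.67% lower), Il2ra (-1.69, SE 0.29) and Il21r (-1.16, SE 0.26), both lower in double-positive DCs. That last count was 1 with the replicate number as a block within tissue, 0 in a fit of the 6 libraries alone, and 1 without replicate 1 or 2 of CD11b+ or without replicate 1 or 3 of double-positive DCs.

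In the lymph node the subsets differed by at most 1.2-fold in Il2rg and 1.16-fold in Jak3, and by more in the genes of the IL-4, IL-15 and IL-21 receptors. CD103+ against CD11b+ DCs gave 5 of 10 past the limits (of all genes 25.9%, with 10.2% higher and 15.6% lower), with Il4ra 8.43-fold (log2 fold change 3.08, SE 0.11), Il15 6.91-fold (2.79, SE 0.14), Il15ra 6.39-fold (2.67, SE 0.22) and Il21r 3.55-fold (1.83, SE 0.25) higher and Il2ra lower (-1.35, SE 0.22). The value for Il2rg was -0.20 (SE 0.07) and that for Jak3 -0.21 (SE 0.17). Double-positive against CD11b+ DCs gave 3 of 10 (of all genes 16.7%, with 6.92% higher and 9.82% lower), Il4ra (1.75, SE 0.11), Il15 (2.10, SE 0.14) and Il15ra (1.99, SE 0.21), all higher, and 5 without replicate 3 of lymph node CD11b+ DCs. Double-positive against CD103+ DCs gave 2 of 10 (of all genes 6.53%, with 4.69% higher and 1.84% lower), with Il2ra higher (1.15, SE 0.22) and Il4ra lower (-1.32, SE 0.11). Comparisons that share a group of libraries are not independent of each other.

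Over the 18 libraries, which share tissue and subset as sources of difference, the log2 levels of the 10 genes fell into a few patterns. Pearson r was 0.96 between Il2ra and Il7r, 0.94 between Il15ra and Il21r, 0.93 between Jak3 and each of Il2ra and Il7r, and 0.91 between Il15 and Il15ra. Il2rg was most like Il13ra1 (0.87) and Jak3 (0.84) and had 0.32 with Il15 and 0.25 with Il4ra. Il15 and Crlf2 had -0.91. Neighbours in the genome were not the most alike, with 0.83 for Il2ra and Il15ra and 0.61 for Il4ra and Il21r.

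**Figure D4:**
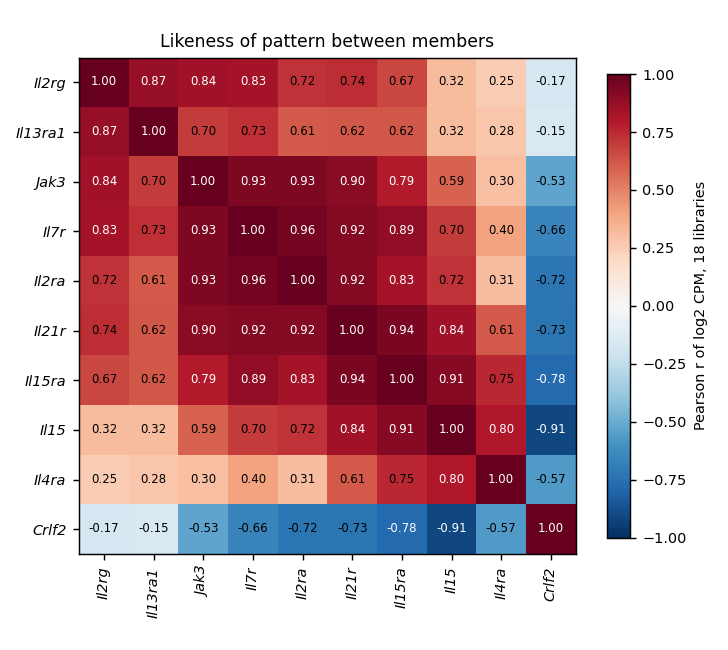
Pearson r of log2 CPM over 18 libraries for each pair of the 10 genes, coloured from -1 to 1. Il7r, Il2ra and Jak3 have r of at least 0.93 with each other, Il15 and Il15ra have 0.91, and Crlf2 is negative with every other gene.

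Among the 9900 genes tested with a group mean of at least 10 CPM, those most like Il2rg were Arid5a (r = 0.987), Dstyk (0.977), Arhgef3 (0.974), Trps1 (0.969) and Dglucy (0.968). Basp1 (0.995), Exoc3l4 and Slc25a10 (both 0.991) were most like Il15, and Htra2 (0.993) and Rab21 (0.990) most like Il15ra. For Il7r these were Fam53b (0.988), Rrad (0.984) and Rsad2 (0.983), and for Il2ra Crispld2 (0.982), Osbpl8 and Slc38a2 (both 0.979). Abcg1 (0.989), Traf3 and Resf1 (both 0.982) were most like Il21r, and Ube2j2 (0.983), Cdc37 (0.979) and Tuba1c (0.978) most like Il4ra. Il13ra1 had Fbxo32 (0.970), Tmem106a (0.958) and Alas1 (0.950), Crlf2 had Slc39a11 (0.968), Mdh2 (0.967) and Prdx5 (0.958), and Jak3 had Il27ra (0.972), Tox2 (0.970) and Peg13 (0.968).

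A further 36 genes of the pathway, none of them among the 10, were tested with edgeR's quasi-likelihood test and Benjamini-Hochberg adjustment over all genes. Of these 31 passed the filter, and Il9, Il13, Tslp, Il13ra2 and Il4i1 did not. Between tissues 15 rose and 5 fell in the lymph node in CD11b+ DCs (15.2% of all genes changed in either direction), 15 rose and 2 fell in CD103+ DCs (35.0%), and 19 rose and 3 fell in double-positive DCs (32.1%). Their median log2 fold change was 0.82, 1.19 and 1.61 in the 3 subsets, or 0.82, 1.17 and 1.49 with genes at 0 in every lamina propria library set to the bound that 3 counts over the group allow, without Chil3 in CD103+ DCs.

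All 4 ligands tested, Il2, Il4, Il7 and Il21, rose in all 3 subsets, at low levels. Il7, a stromal survival cytokine for lymphocytes, had group means of 0.0833 to 1.4 CPM in the lamina propria and 8.67 ± 2.3 (SD, n = 3) in CD11b+, 19 ± 5.72 in CD103+ and 18.9 ± 3.12 CPM in double-positive DCs of the lymph node. Its log2 fold changes were 2.62 (SE 0.40, edgeR adjusted p = 7.6e-05), 7.94 (SE 0.57, 2.7e-09) and 3.92 (SE 0.42, 5.1e-07), of which the second rests on 1 to 3 counts per lamina propria library. Il2, Il4 and Il21, which are mainly made by T cells, had group means of at most 3.8 CPM. Il9 had no count in any library.

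Il2rb, the chain shared by IL-2 and IL-15, rose in all 3 subsets. It gave 3.29 to 5.71 CPM in lamina propria CD11b+ DCs against 190, 202 and 327 CPM in the lymph node (log2 fold change 5.87, SE 0.43, edgeR adjusted p = 3.2e-08). In CD103+ DCs it gave 0.612 to 2.45 CPM against 30.6, 60.9 and 63.9 CPM (4.96, SE 0.44, 4.4e-08), and in double-positive DCs 0.535 to 2.41 CPM against 74.6, 74.8 and 77.4 CPM (5.64, SE 0.46, 1.7e-08). In the lymph node it was lower in CD103+ than in CD11b+ DCs (-2.21, SE 0.36, 5.8e-05), the opposite order to Il15 and Il15ra. Il2rb is high in NK and T cells, and its highest library, replicate 2 of lymph node CD11b+ DCs, also had the highest NK cell and ILC sum; the part of such cells was not tested. Il9r, the IL-9 chain, rose in all 3 subsets to group means of 7.45 to 9.81 CPM.

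Among kinases and STATs, those named here rose past 2-fold in CD103+ DCs, double-positive DCs or both, except for Jak1 and Stat5b, and were short of 2-fold in CD11b+ DCs. Jak2, the kinase of many cytokine receptors outside the gamma chain family, changed from 298 ± 14.1 to 656 ± 101 CPM in CD103+ DCs (log2 fold change 1.14, SE 0.12, edgeR adjusted p = 2.5e-07) and from 322 ± 10.3 to 983 ± 161 CPM in double-positive DCs (1.61, SE 0.12, 5.4e-09). Stat3, used by IL-21, rose in CD103+ DCs from 393 ± 54.1 to 899 ± 137 CPM (1.19, SE 0.13, 5.4e-07) and in double-positive DCs from 266 ± 19.5 to 820 ± 86.8 CPM (1.62, SE 0.13, 1.8e-08). Stat5a, used by IL-2, IL-7 and IL-15, rose in CD103+ DCs from 52.4 ± 7.56 to 150 ± 23.5 CPM (1.52, SE 0.15, 2.3e-07) and in double-positive DCs from 89.1 ± 7.97 to 210 ± 30 CPM (1.23, SE 0.15, 2.7e-06). In double-positive DCs Tyk2 (1.77, SE 0.13, 7.6e-09) and Stat6 (1.05, SE 0.13, 4.2e-06), the STAT of IL-4 and IL-13, rose as well. Jak1, which every gamma chain receptor uses, and Stat5b were not past 2-fold in any subset, with log2 values from 0.42 to 0.85.

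The inhibitors of cytokine signalling divided. Socs2 rose in all 3 subsets, to 208 ± 50.1 CPM in CD11b+ (log2 fold change 3.55, SE 0.23, edgeR adjusted p = 8.3e-09), 767 ± 82.6 in CD103+ (6.66, SE 0.27, 2.7e-12) and 885 ± 8.24 in double-positive DCs (4.89, SE 0.25, 5.2e-11) from at most 29.9 CPM in the lamina propria. Socs1 rose by 2.50 (SE 0.18, 2.2e-08), 1.65 (SE 0.17, 2.8e-07) and 2.82 (SE 0.18, 9.8e-10), and Cish by 2.58 (SE 0.28, 2.4e-06), 1.87 (SE 0.30, 3.4e-05) and 1.16 (SE 0.27, 0.0016), in the same order of subsets. Socs3, which curbs STAT3 signalling, fell in CD11b+ DCs from 557 ± 64.9 to 118 ± 14.5 CPM (-2.24, SE 0.17, 3.5e-08) and in double-positive DCs from 353 ± 90.9 to 64.3 ± 7.14 CPM (-2.46, SE 0.17, 2.5e-09). In CD103+ DCs Socs3 was 16.1 ± 2.44 CPM in the lamina propria and 31.8 ± 2.77 CPM in the lymph node, short of 2-fold (0.99, SE 0.17, 8.4e-05).

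The list of 3 genes known as STAT5 targets held Bcl2, Mcl1 and Pim1, and not Cish and Socs2, which are given with the inhibitors. Of the 3, Bcl2 alone was past both limits, in CD11b+ DCs, where 15.2% of all genes were. This survival gene rose there from 26.5 ± 4.39 to 58.3 ± 22.4 CPM (log2 fold change 1.14, SE 0.23, edgeR adjusted p = 0.00081), with 84.1 CPM in replicate 2, the library with the highest NK cell and ILC marker sum. Mcl1, another survival gene, had adjusted p-values under 0.01 in all 3 subsets (edgeR, 0.0069, 8.5e-08 and 0.00046) with changes short of 2-fold, of -0.29 (SE 0.08), 0.82 (SE 0.08) and 0.38 (SE 0.08) on the log2 scale. Pim1 passed neither limit in any subset.

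Genes known as targets of IL-4, IL-13 or TSLP in myeloid cells did not share a direction: of 10 tested, 5 rose and 4 fell in CD11b+ DCs (of all genes 10.3% and 4.93%), 3 rose and 2 fell in CD103+ DCs (19.8% and 15.1%), and 4 rose and 2 fell in double-positive DCs (18.6% and 13.6%). The chemokine Ccl22 rose in all 3 subsets, to 485 ± 123, 3453 ± 259 and 3594 ± 575 CPM (log2 fold changes 1.72, SE 0.26; 3.18, SE 0.28; 2.39, SE 0.27). Pdcd1lg2, the PD-L2 gene, rose to 27.4 ± 2.87, 206 ± 14.6 and 129 ± 18.4 CPM (1.19, SE 0.16, edgeR adjusted p = 1.9e-05; 3.79, SE 0.17, 8.5e-12; 2.30, SE 0.16, 2.5e-09). Tnfsf4, the OX40 ligand gene, rose in all 3 subsets to group means of 3.31 to 10.9 CPM, and in lamina propria CD103+ DCs it had 0 to 1 counts per library. Arg1 rose in CD11b+ DCs to 11.4 ± 4.54 CPM (3.68, SE 0.71, 0.00066) and in double-positive DCs to 2.18 ± 0.283 CPM (3.91, SE 0.82, 0.00059).

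The lectins Mgl2 and Clec10a fell in all 3 subsets. Mgl2 gave 530 ± 89.6, 24.8 ± 15 and 676 ± 83.8 CPM in lamina propria CD11b+, CD103+ and double-positive DCs and 32.9 ± 3.97, 1.1 ± 0.344 and 3.11 ± 1.54 CPM in the lymph node, with log2 fold changes of -4.01 (SE 0.36, edgeR adjusted p = 2.5e-07), -4.47 (SE 0.45, 2.2e-07) and -7.80 (SE 0.44, 2.2e-10). For Clec10a they were -2.81 (SE 0.38), -4.99 (SE 0.57) and -4.92 (SE 0.45). The chemokine Ccl17 (-1.66, SE 0.22, 1.5e-05) and Retnla (-3.51, SE 0.64, 0.00037), a product of alternatively activated macrophages, fell in CD11b+ DCs, and their values in the other subsets were not past the limits. The sum of 10 macrophage markers was 743 to 1607 CPM in lamina propria and 321 to 535 CPM in lymph node CD11b+ DCs, with none at 0, and their part in Retnla was not tested.

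**Figure D5:**
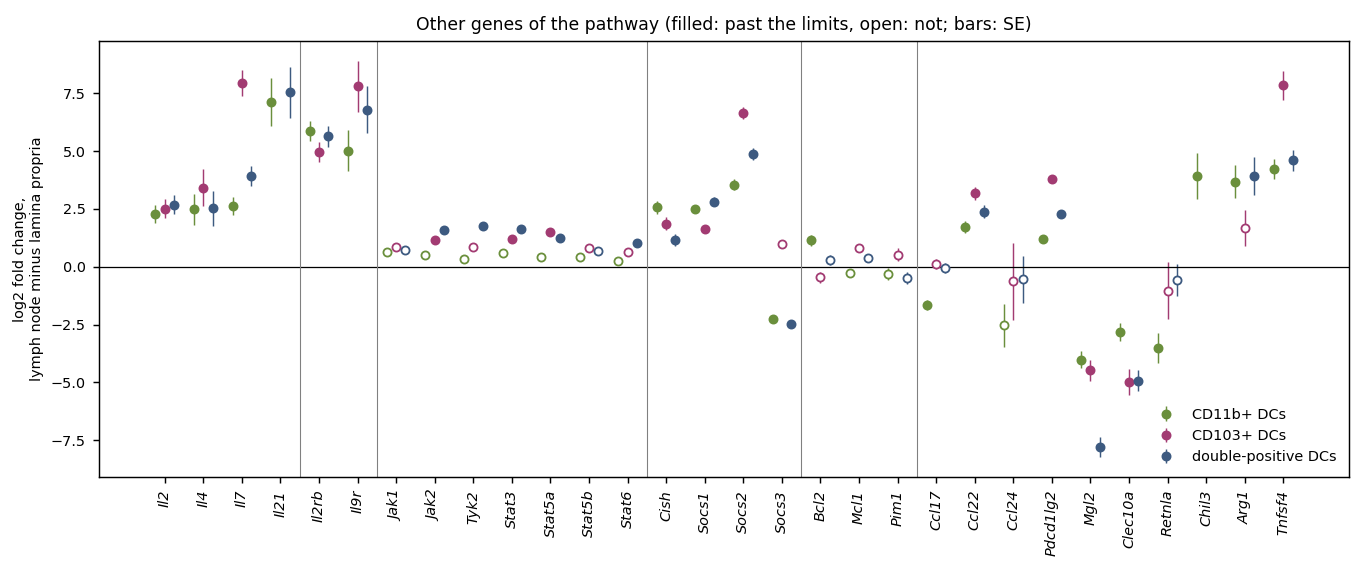
Log2 fold change (lymph node minus lamina propria) of tested pathway genes that are not among the 10, in 3 subsets, with bars for the SE and vertical lines between ligands, receptor chains, kinases and STATs, inhibitors, STAT5 targets and type 2 targets. Filled points are past the limits, Socs2 lies above 3 in each subset and Mgl2 below -4, and Il21 in CD103+ and Chil3 in CD103+ and double-positive DCs are not drawn because every lamina propria library was at 0.

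Between subsets the pathway genes changed in 12 of 31 for CD103+ against CD11b+ DCs (15.7% of all genes), 5 for double-positive against CD11b+ DCs (4.81%) and 9 for double-positive against CD103+ DCs (13.6%) of the lamina propria, the second count being 3 without replicate 3 of double-positive DCs. In the lymph node the counts were 17 (25.9% of all genes), 17 (16.7%) and 2 (6.53%) for the same comparisons, the last a share near that of all genes. These 2 were Cish (log2 fold change 1.17, SE 0.28, edgeR adjusted p = 0.0048) and Socs3 (1.01, SE 0.17, 0.00024), both higher in double-positive DCs. That count was 0 without replicate 2 or 3 of CD103+ or replicate 3 of double-positive DCs and 1 without replicate 1 or 2 of double-positive DCs.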

How the data were processed

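Reads per gene were measured by RNA-seq (Smart-seq v4) in 18 DC libraries. Per the labels, FastQC 0.11.7, STAR 2.6 and GRCm38 were used. The deposited values are raw counts, which the authors' methods describe as unique alignments over an Ensembl transcriptome without strand. Counts in gene overlaps and near-identical copies are therefore uncertain.

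Counts were scaled by TMM and fitted in edgeR 4.0.16 (R 4.3.3), with 17074 of 54232 genes kept by filterByExpr, a mean for each of 6 groups, quasi-likelihood tests and Benjamini-Hochberg adjustment. The limits were an adjusted p under 0.01 and a fold over 2, as in the study. CPM are scaled by TMM, and log2 CPM for correlations used a prior count of 2. The code was tested on simulated data. Symbols matched 54079 identifiers, and exon lengths came from the GRCm38 annotation given here. The genes and lists were chosen with earlier results of these data known. Named were all 10 genes of the system, pathway genes changed between tissues with a group mean of at least 10 CPM, and the 5 or 3 genes most like each of the 10. A pathway gene and a gene of the likeness rule are not reported here. The other pathway genes named, and the DC and marker genes given by value, were chosen after their values were seen.

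Replicate letters in the labels name libraries. Deviations from the group means were correlated between libraries with the same number. In the lamina propria r was 0.15 to 0.21 for CD103+ and CD11b+ DCs and 0.13 to 0.19 for double-positive and CD103+ DCs. For double-positive and CD11b+ DCs r was 0.08 to 0.25, and replicate 2 had 0.08 against 0.09 with another number. Between tissues r was -0.10 to 0.05. The numbers may thus pair libraries within the lamina propria but not between tissues, and the main fit had no term for them. Alternatives were DESeq2 1.42.0 and its size factors, total counts, no and stricter filters (100 counts in 3 libraries), an adjusted p under 0.05, the compared libraries alone, replicate blocks and leaving out each library. A fit without the libraries holding both Xist and Ddx3y, and the replicate block within tissue for the 10 genes, were added after seeing the data.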

Additional observations from a re-analysis of the deposited data

Results flagged for a closer look

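The tissue effect of 16 of the 31 pathway genes tested differed between the 3 subsets (edgeR's F test of the interaction, Benjamini-Hochberg adjusted over all genes), where 31.5% of all genes did. Adjusted p-values were 1.4e-08 for Socs3, 4.1e-07 for Pdcd1lg2, 1.7e-06 for Mcl1 and 2.5e-06 for Socs2. They were 2.7e-05 for Tyk2, 3.2e-05 for Il7, 3.4e-05 for Mgl2, 0.00017 for Jak2, 0.00021 for Ccl17 and 0.00085 for Stat3. For Stat5a the value was 0.0013, for Socs1 0.002, for Bcl2 0.0024, for Tnfsf4 0.0057, for Clec10a 0.0084 and for Stat6 0.0093. Mcl1, which none of the tissue comparisons placed past 2-fold, had log2 fold changes of -0.29 (SE 0.08) in CD11b+, 0.82 (SE 0.08) in CD103+ and 0.38 (SE 0.08) in double-positive DCs.

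Il4ra, one of the 10 genes of the system, was lower in all lymph node CD11b+ libraries (log2 fold change -0.39) and higher in all lymph node CD103+ (2.44) and double-positive (0.82) libraries than in the lamina propria, and this difference between subsets was not tested. Groups of 3 libraries were too small to look for single libraries that stood apart.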

How the results depend on the processing

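With total counts in place of TMM the median of all genes moved by 0.14, -0.22 and -0.17 in the tissue comparisons of CD11b+, CD103+ and double-positive DCs, and by -0.43 and -0.37 for CD103+ and double-positive against CD11b+ DCs of the lymph node, where the share of higher calls among all genes fell from 39.6% to 19.5% and from 41.3% to 19.3%. Of the log2 fold changes of the 10 genes, 1331 alternative values moved by less than their spread and 39 by more. The number of the 10 past the limits was within 1.5 times the main count in 130 alternatives and outside in 7, and that of pathway genes in 150 and 13. For double-positive against CD11b+ DCs of the lamina propria, 2 of the 10 became 0 in a fit of the 6 libraries alone, 1 with the replicate block within tissue, and 1 to 2 with a library left out, and 5 pathway genes became 8 at an adjusted p under 0.05, 8 in DESeq2 and 3 to 7 with a library left out. For double-positive against CD11b+ DCs of the lymph node, 3 of the 10 became 3 to 5 with a library left out. For double-positive against CD103+ DCs of the lymph node, 2 pathway genes became 1 with DESeq2 size factors, 4 without a filter, 4 at an adjusted p under 0.05, 4 in DESeq2, 0 to 2 with a library left out and 0 without the libraries holding both Xist and Ddx3y. The replicate block moved no other count by over 1.5 times, with 5, 9 and 6 of the 10 past the limits in the tissue comparisons as without it. The cause of these changes was not tested. In the lamina propria, Il2ra and Il7r in CD103+ DCs rest on 15 to 27 and 54 to 71 counts per library, which limits their fold changes.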
